A study of Mus musculus with 2 samples.

Results

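Otic epithelial transcription factors are described here as 9 genes, Pax2, Pax8, Eya1, Dlx5, Gata2, Gata3, Lmx1a, Nr2f1 and Sox9, picked by symbol from the 32285 genes counted in a pair of single-cell RNA libraries of mouse cochlea. All 9 symbols were found, each once, in both libraries. The mutant library came from E16.5 embryos of genotype Emx2Cre;Ptch1f/f, in which Cre made from Emx2 is meant to remove the Hedgehog receptor Ptch1 from cells that express Emx2. The library it is set against came from E16.5 wild-type embryos, and both are labelled as a mixed 129/SvEv and C57BL/6N background. Each library pooled 8 cochleae, so embryos cannot be told apart, and the wild type carries neither Cre nor floxed alleles. With 1 library per genotype there is no replicate check and no test. Every interval below covers counting error only.

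These genes encode DNA-binding proteins and 1 coactivator that pattern the otic placode and vesicle, the epithelial sac from which the hearing and balance organs form. In the cochlear duct they mark regions. The floor holds the sensory strip with Kolliker's organ medial and the outer sulcus lateral to it, and the roof forms Reissner's membrane and the stria vascularis. Hedgehog signalling is known to pattern the otic vesicle along its dorsal to ventral axis, and Ptch1 holds that pathway off where no ligand is bound.

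The mutant library held 12326 barcodes and 100135532 unique molecular identifiers (UMIs, each standing for 1 captured RNA molecule), and the wild-type library 6500 barcodes and 61130806 UMIs. After filters, 8670 mutant and 6108 wild-type barcodes were kept, of which 17 sequences occurred in both. The epithelium, named from Epcam, Cdh1 and 7 further markers, comprised 2066 mutant and 1625 wild-type barcodes. The median depth was 3728.5 UMIs in the mutant epithelium and 7807 in the wild type, and 990 of the mutant barcodes lay below the shallowest wild-type barcode of 3352 UMIs. RNA of other lineages stood apart between the libraries. By 25 marker genes of mesenchyme, endothelium, macrophages and erythroid cells, 14.8% of mutant and 67.6% of wild-type epithelial barcodes were mixed, meaning that over 5 UMIs per 10000 came from these genes. Values without mixed barcodes are therefore given for many of the results where leaving these barcodes out changes a call or a direction. Of 11 epithelial clusters, 8 held at least 90% of barcodes from 1 library. Clusters 13, 9, 10 and 20 held most mutant barcodes, and clusters 11, 25, 28 and 26 most wild-type barcodes. Ptch1 reached 184 CPM (UMIs per 1000000 UMIs of the group) in the mutant epithelium and 29.1 CPM in the wild type, and Gli1 19.8 and 2.37 CPM. The libraries count 3′ ends and the labels do not give the floxed exons, so the Ptch1 level checks no deletion.

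Epithelial origin differed between members. Of the UMIs of Pax2, 98.3% in the mutant and 98.2% in the wild type came from epithelial barcodes, and of those of Lmx1a, 97.2% in the mutant and 92.5% in the wild type. The epithelium supplied 24.0% of all UMIs in the mutant library and 31.3% in the wild type. Gata3 followed with 84.2% in the mutant and 72.5% in the wild type, and Nr2f1 with 74.2% and 64.0%. Eya1 had 61.0% of its UMIs in mutant and 51.4% in wild-type epithelium. The remaining measured members had large sources elsewhere. Sox9, also a factor of cartilage formation, had 41.8% of its UMIs in mutant and 46.1% in wild-type epithelium, and Gata2, best known from blood formation, 44.1% and 64.7%. Dlx5 had 18 of 39 UMIs there in the mutant and 13 of 26 in the wild type. Pax8 had no UMI in the mutant library and 1 UMI in the wild type. A count of 0 in the mutant allows a level of up to 0.0354 CPM over all kept barcodes. By these counts Pax2 and Lmx1a came almost wholly from epithelium, while the other measured members were also counted in mesenchyme, glia or neurons.

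**Figure D1:**
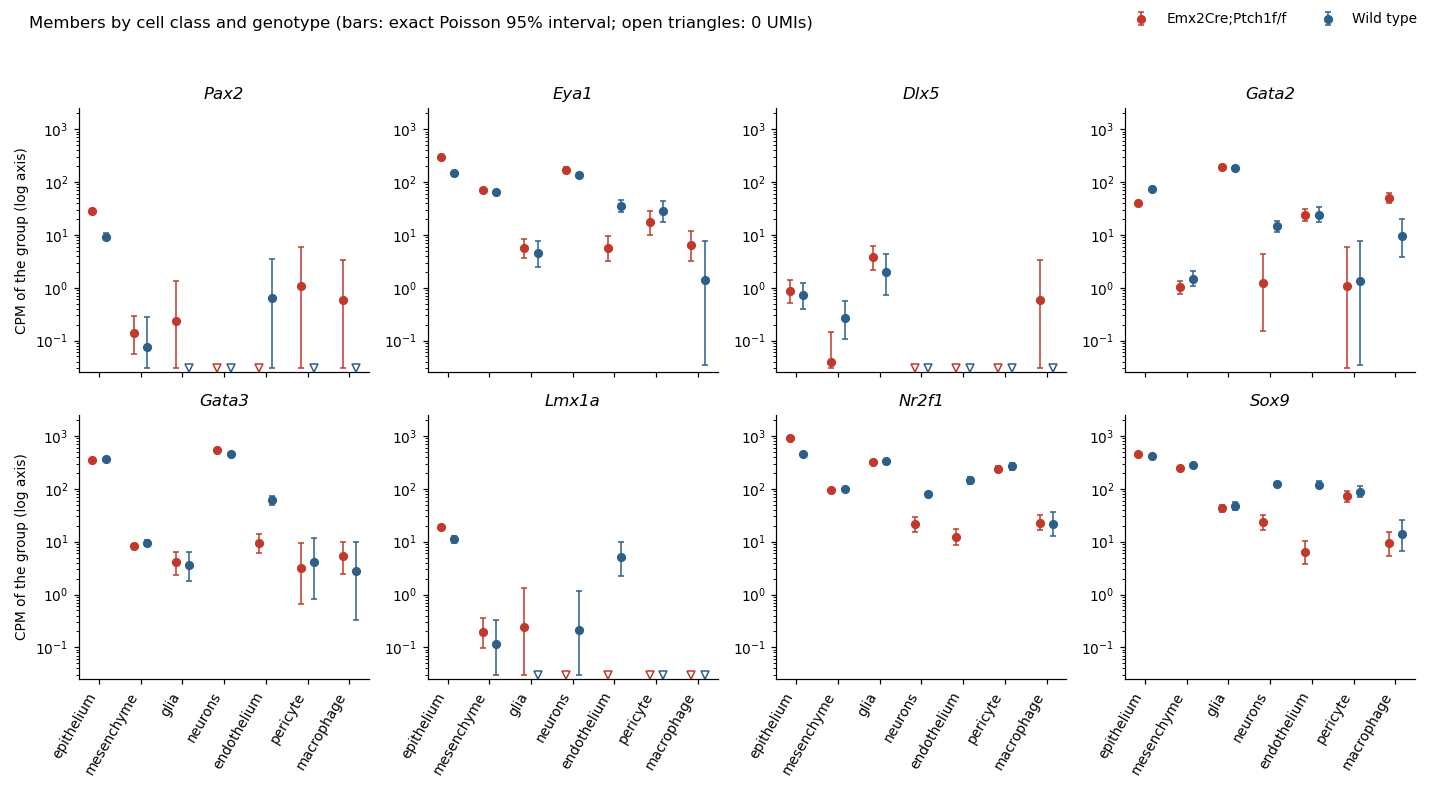
Level of each member (CPM of the class total, log axis) in 7 cell classes, with the mutant library left of the wild type in each pair. Points are sums over all barcodes of a class, bars are exact Poisson 95% intervals drawn down to 0.03 CPM, and open triangles mark 0 UMIs. Pax2 and Lmx1a stay under 6 CPM outside the epithelium, whereas Gata3 is higher in neurons than in epithelium and Gata2 is highest in glia.

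Across the whole epithelium, 8 of the 9 members had at least 10 UMIs. Ratios are log2 of mutant over wild-type CPM with 1 CPM added, and a member is called where that ratio reaches 2-fold. A 95% interval given for a ratio is that of the plain CPM ratio, with nothing added. Pax2, Eya1 and Nr2f1 were called higher in the mutant, against 2.16% of the 16306 genes measured, and no member was called lower, against 6.14%. The median ratio of the 8 members was 0.41, and that of all measured genes 0.03. Eya1 and Nr2f1 lay just past the limit, at 1.02 and 1.03. Without mixed barcodes, Pax2 alone was called higher (3.21% of genes) and Gata2 alone lower (2.61%), so the choice of barcodes changed 3 of the 4 calls made either way. Leaving out mixed barcodes also changed what the wild-type epithelium was made of. Medial duct-like barcodes were 36.5% of the mutant and 72.8% of the wild-type epithelium without mixed barcodes, against 34.4% and 33.5% with them. The part of this shift in the lost calls was not tested. Gata3 and Sox9 stayed within 0.25 of 0 in both versions.

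**Figure D2:**
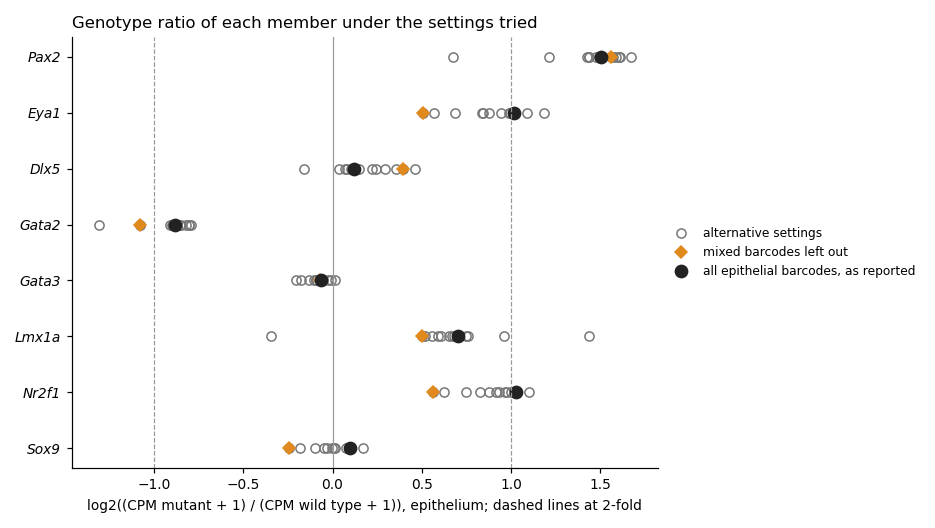
Log2 ratio of mutant over wild-type epithelium for each member with at least 10 UMIs. Filled black circles give all epithelial barcodes (Pax2 1.503, Gata2 -0.88), orange diamonds leave out mixed barcodes (Pax2 1.56, Gata2 -1.08), open circles give the other settings, and dashed lines mark 2-fold. Pax2 stays right of 0 and Gata2 left of 0 in every setting drawn.

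RefSeq promoter windows (GRCm38.p6, 250 bases before to 50 after a transcript start) were available for 6 of the 9 members, with 10 starts, and entries for Eya1, Dlx5 and Sox9 were not used here. They are shown for Pax2 and Nr2f1, both called higher in the mutant, and for Gata2, the member with the lowest ratio. Capitals mark a match to ACAAAG, a core of the sites that SOX proteins bind, or to its reverse complement CTTTGT.
Pax2, second start, chr19:44755502-44755801, plus strand: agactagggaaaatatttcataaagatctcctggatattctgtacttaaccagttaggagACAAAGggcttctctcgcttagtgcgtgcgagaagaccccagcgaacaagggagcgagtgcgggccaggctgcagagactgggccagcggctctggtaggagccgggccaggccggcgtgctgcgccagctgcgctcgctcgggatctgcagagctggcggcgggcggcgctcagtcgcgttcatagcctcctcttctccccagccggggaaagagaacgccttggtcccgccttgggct
Nr2f1, second start, chr13:78196400-78196699, minus strand: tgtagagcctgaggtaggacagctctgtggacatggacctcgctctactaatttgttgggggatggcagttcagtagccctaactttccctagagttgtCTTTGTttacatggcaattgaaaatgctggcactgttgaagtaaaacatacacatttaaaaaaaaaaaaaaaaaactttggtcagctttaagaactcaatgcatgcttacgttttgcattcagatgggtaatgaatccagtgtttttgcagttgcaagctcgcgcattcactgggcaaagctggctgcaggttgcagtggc
Gata2, first start, chr6:88193641-88193940, plus strand: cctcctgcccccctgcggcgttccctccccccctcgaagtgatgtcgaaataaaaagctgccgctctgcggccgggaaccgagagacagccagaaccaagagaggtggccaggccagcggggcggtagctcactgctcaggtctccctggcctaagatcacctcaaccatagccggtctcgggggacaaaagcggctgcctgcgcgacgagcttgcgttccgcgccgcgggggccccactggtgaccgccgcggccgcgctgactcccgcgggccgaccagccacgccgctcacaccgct
The Pax2 window holds ACAAAG at position -190 from the start and ends just before the gene's annotated span. The Nr2f1 window, which lies within the gene, holds CTTTGT at position -151. The Gata2 window holds no match. On both strands, ACAAAG was also found in the first Pax2 window at position -122. The third Pax2, first Nr2f1 and second Gata2 windows hold no match, nor do those of Pax8, Gata3 and Lmx1a. For Pax2 and Nr2f1 a window with a match was thus shown, though both genes also have a window without. ACAAAG occurs in 18.7% of the 32851 RefSeq windows. GACCACCCA, the core site of GLI factors, occurs in 0.253% of all windows and in none of the 10 member windows. AGATAA, bound by GATA factors, occurs in 11.2% and TAATTA, bound by homeodomains, in 5.29% of windows, and neither was found in the 10. These letters describe the windows only. Since matches of 1 motif only were found, no matches overlapped.

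Pax2, a paired-box factor needed in mouse for a normal cochlear duct, spans chr19:44756045-44837871 on the plus strand of mm10. It had 570 UMIs or 28.0 CPM in mutant epithelium (95% interval 25.8 to 30.4) and 164 UMIs or 9.24 CPM in wild-type epithelium (7.88 to 10.8). The log2 ratio was 1.503, and 1.56 without mixed barcodes. Epithelial sub-clusters were named by marker genes, and each such name is to be read as "-like". In roof-like barcodes, led by Oc90, Pax2 stood at 66.2 CPM in the mutant and 58.7 CPM in the wild type, with overlapping intervals. Without mixed barcodes its direction there turned, at 59.3 CPM in the mutant and 95.8 CPM (21 UMIs) in the wild type. In lateral duct-like barcodes it stood at 48.9 CPM in the mutant and 19.9 CPM in the wild type. Medial duct-like barcodes had 9.65 CPM (67 UMIs) in the mutant and 1.17 CPM (7 UMIs) in the wild type. Over all barcodes both libraries thus ranked roof above lateral above medial. Hair cell-like and prosensory-like sub-clusters were named in the wild type only and had 14.7 and 3.23 CPM, while sub-clustering both libraries together put 2 mutant and 136 wild-type barcodes in hair cell-like groups. Dividing barcodes had 40 mutant UMIs and 2 wild-type UMIs, whose plain log2 ratio has a 95% interval of -0.08 to 4.96. The roof-like and lateral duct-like groups made up 14.1% and 17.4% of mutant epithelium but 6.15% and 11.1% of wild-type epithelium. With the 4 subtypes found in both libraries weighted equally, the Pax2 ratio was 0.67. Pax8, the paired-box gene of the early otic placode at chr2:24420560-24475599, was not detectable at this depth in the mutant, as given above.

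Eya1 encodes a coactivator with phosphatase activity that works with homeodomain partners of the sine oculis family, and its human counterpart is mutated in branchio-oto-renal syndrome. It spans chr1:14168954-14310235 on the minus strand. Its level was 299 CPM in mutant epithelium (291.5 to 307) and 147 CPM in wild-type epithelium (142 to 153). Without mixed barcodes the levels were 308.5 CPM in the mutant and 216.5 CPM in the wild type, and the log2 ratio fell to 0.51. The difference was uneven across subtypes. Lateral duct-like barcodes had 420 CPM in the mutant and 91.1 CPM in the wild type, a log2 ratio of 2.19. Roof-like barcodes had 199 CPM in the mutant and 43.7 CPM in the wild type, a log2 ratio of 2.16. Without mixed barcodes they had 209.7 CPM in the mutant and 18.2 CPM in the wild type, where 4 UMIs remained. Medial duct-like barcodes had 261 CPM in the mutant and 220 CPM in the wild type, and dividing barcodes 305 and 289 CPM. Hair cell-like and prosensory-like barcodes of the wild type had 175 and 158 CPM. The mutant order was therefore lateral, dividing, medial and roof. The wild-type order was dividing, medial, hair cell, prosensory, lateral and roof, with hair cell and prosensory intervals overlapping. Without mixed barcodes, wild-type hair cell-like and prosensory-like barcodes, 17 each, had 248 and 235 CPM. Medial duct-like ones had 238 CPM, and all these intervals overlapped, so that part of the order depended on mixed barcodes.

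Gata2 and Gata3 encode related zinc-finger factors, and Gata3 is required in mouse for otic and cochlear neuronal development and linked to deafness in humans. Gata2 spans chr6:88193891-88207032 on the plus strand and Gata3 chr2:9857078-9890034 on the minus strand. Gata2 stood at 39.6 CPM in mutant epithelium (36.9 to 42.4) and 73.9 CPM in wild-type epithelium (69.9 to 78.0). Its lateral duct-like level was 124 CPM in the mutant and 401 CPM in the wild type, a log2 ratio of -1.69, and -2.02 without mixed barcodes (126 and 514 CPM). Roof-like barcodes had 63.8 CPM in the mutant and 92.0 CPM in the wild type. Gata2 was lower in other named groups, with 6.05 CPM in mutant and 9.84 CPM in wild-type medial duct-like barcodes and 13.8 and 9.04 CPM in wild-type hair cell-like and prosensory-like ones. At an equal depth of 2000 UMIs, 16.3% of 257 mutant and 42.8% of 180 wild-type lateral duct-like barcodes had a Gata2 UMI. The share in mesenchyme was 0.214% in the mutant and 0.158% in the wild type. Gata3 behaved differently in the same barcodes. It reached 1088 CPM in mutant and 1006 CPM in wild-type lateral duct-like barcodes, its highest subtype in both libraries. Without mixed barcodes the lateral duct-like direction turned, at 1101 CPM in the mutant (1067 to 1136) and 1240 CPM in the wild type (1174 to 1309). Prosensory-like barcodes of the wild type had 619 CPM. Medial duct-like barcodes had 116 CPM in the mutant and 188 CPM in the wild type, roof-like ones 123 and 163 CPM. The roof-like direction turned without mixed barcodes, at 129 CPM in the mutant and 73.0 CPM (16 UMIs) in the wild type. Over all epithelium Gata3 stood at 357.5 CPM in the mutant and 374 CPM in the wild type, and the log2 ratio of -0.07 has an interval of -0.11 to -0.02.

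The lateral duct-like groups of the libraries were not alike in other markers. Fst, a follistatin gene of the outer sulcus region, stood at 904 CPM in the mutant and 636 CPM in the wild type, but Bmp4, a ligand of that region, at 66.9 and 797 CPM. Lmo3 stood at 48.1 CPM in the mutant and 110 CPM in the wild type, and Slc26a4 at 5.88 and 31.4 CPM. Sox2, a prosensory gene, reached 417.5 CPM in the mutant group and 20.4 CPM in the wild-type group, and Hey2 178 and 14.7 CPM. When epithelial barcodes of both libraries were sub-clustered together, 384 mutant barcodes were prosensory-like and 4 were lateral duct-like, against 146 and 331 in the wild type. The mutant prosensory-like group so made had 82.3 CPM of Gata2 and 916 CPM of Gata3, while the wild-type one had 10.6 and 609 CPM. The comparison of mutant with wild-type lateral duct-like barcodes is thus one of groups whose name depends on how they were clustered.

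**Figure D3:**
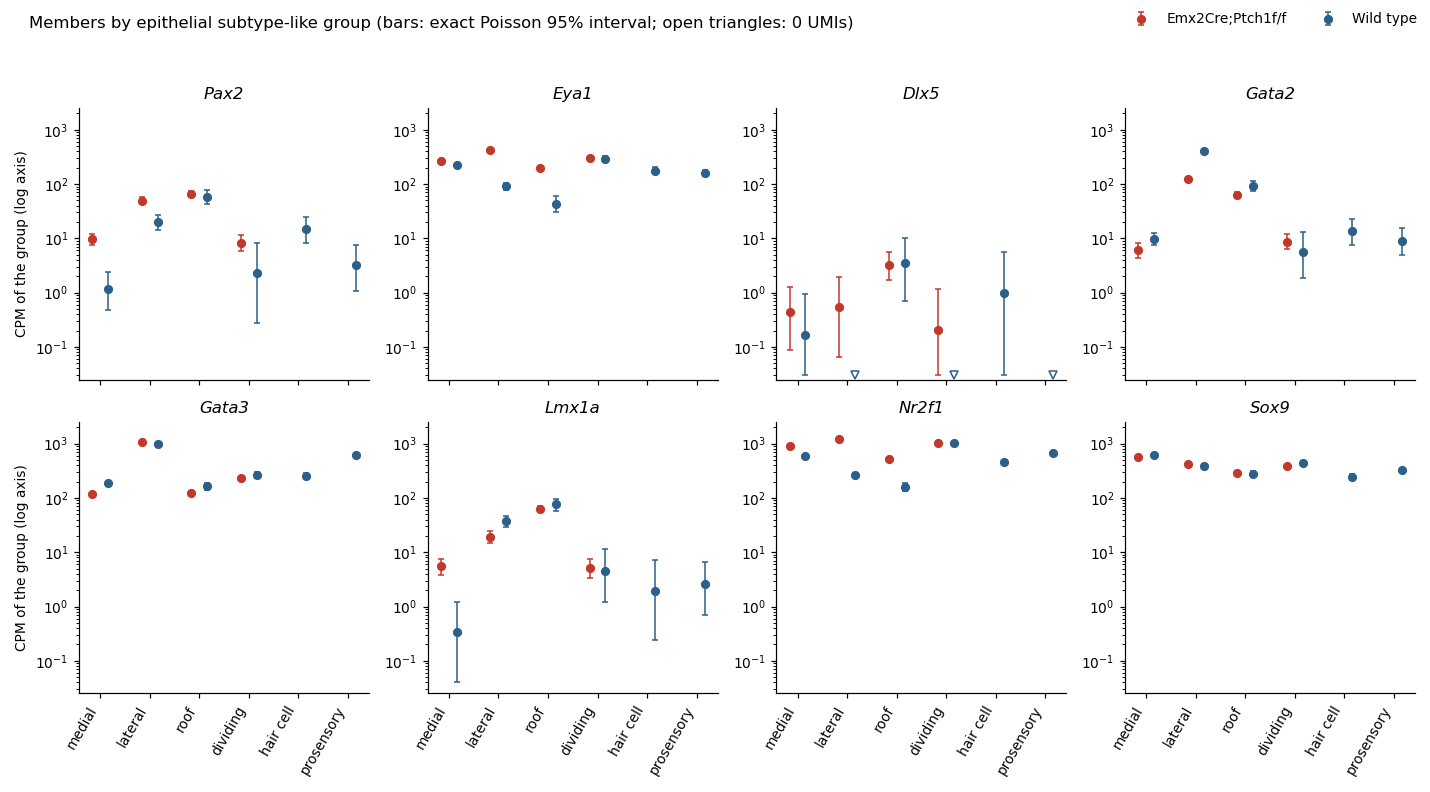
Level of each member (CPM of the group total, log axis) in 6 epithelial subtype-like groups, mutant left of wild type in each pair. Bars are exact Poisson 95% intervals drawn down to 0.03 CPM and open triangles mark 0 UMIs. Hair cell-like and prosensory-like groups were named in the wild type only. Gata2 and Gata3 peak in the lateral group and Pax2, Lmx1a and Dlx5 in the roof group of both libraries. Sox9 is the most even, from 248 CPM in hair cell-like to 615 CPM in medial duct-like barcodes of the wild type.

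Lmx1a, a LIM-homeodomain gene mutated in the dreher mouse and active in non-sensory otic epithelium, spans chr1:167689237-167848741 on the plus strand. It had 18.6 CPM in mutant epithelium (16.8 to 20.6) and 11.04 CPM in wild-type epithelium (9.55 to 12.7), a log2 ratio of 0.71 that missed the 2-fold limit. Roof-like barcodes had 62.4 CPM in the mutant and 75.9 CPM in the wild type, with overlapping intervals. Lateral duct-like barcodes had 19.3 CPM in the mutant and 37.7 CPM in the wild type, 72 UMIs each. Medial duct-like barcodes had 38 UMIs or 5.47 CPM in the mutant and 2 UMIs or 0.333 CPM in the wild type, a log2 ratio of 2.28, and of 2.09 to 7.13 by the counting interval of the plain ratio. With the 4 shared subtypes weighted equally, and all others left out, the direction over the epithelium turned, at a ratio of -0.35. Dlx5, a distal-less homeodomain gene of the dorsal otic vesicle at chr6:6877805-6882085, stayed rare. Its highest epithelial levels were in roof-like barcodes, 3.26 CPM (12 UMIs) in the mutant and 3.45 CPM (3 UMIs) in the wild type. The whole epithelium had 18 mutant and 13 wild-type UMIs of Dlx5, too few to show a difference at this depth. Glia had 3.80 CPM in the mutant and 1.97 CPM in the wild type.

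**Figure D4:**
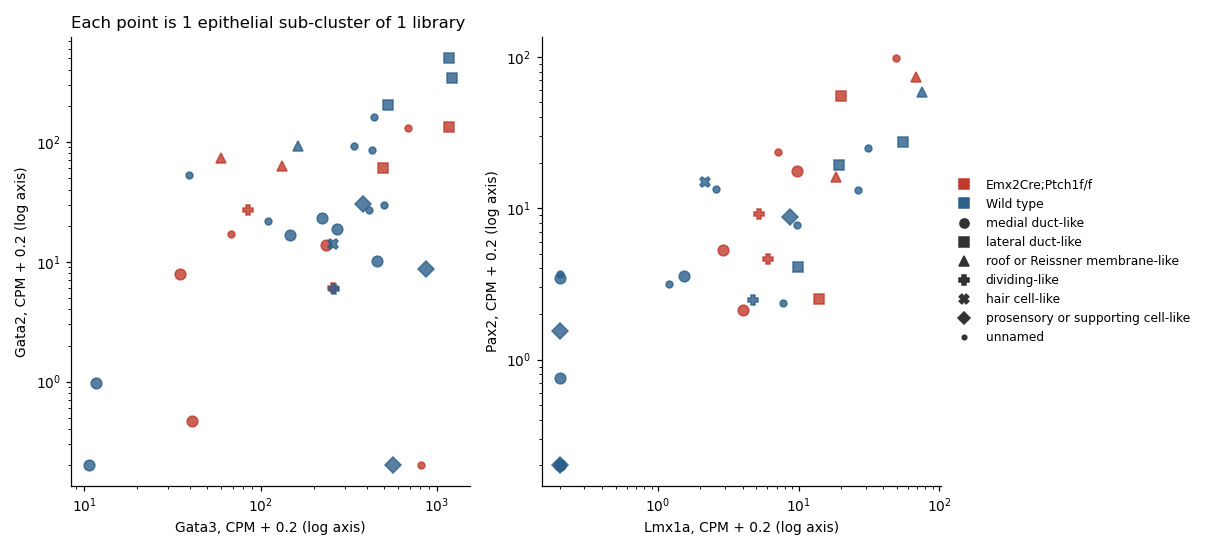
Levels in the 12 mutant and 22 wild-type epithelial sub-clusters, on log axes with 0.2 CPM added. The left panel sets Gata2 against Gata3 and the right panel Pax2 against Lmx1a. Marker shapes give the marker-based name and red and blue the mutant and wild-type libraries. The wild-type lateral duct-like squares reach 505 CPM of Gata2 and the mutant ones 132 CPM, at Gata3 levels of 1175 and 1166 CPM.

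Within the lateral duct-like group the sub-clusters differed among themselves. In the mutant, Gata2 stood at 132 CPM in sub-cluster 1 and 59.8 CPM in sub-cluster 6, and Gata3 at 1166 and 496.5 CPM. In the wild type, Gata2 stood at 505, 338.5 and 205 CPM in sub-clusters 20, 19 and 10, and Gata3 at 1175, 1219 and 529 CPM. The lowest wild-type Gata2 level was above the highest mutant one. Mutant sub-cluster 6 had a median of 1713 UMIs per barcode and sub-cluster 1 of 9878. Shallow mutant barcodes also differed as a set. Those under 3352 UMIs had 401 CPM of Nr2f1, 131 CPM of Eya1 and 200 CPM of Sox9, while the deeper mutant barcodes had 971, 315 and 470 CPM. Gata2 stood at 37.9 CPM in shallow and 39.8 CPM in deeper mutant barcodes. A wild-type sub-cluster of 61 barcodes led by Dct, Pmel and Enpep, left unnamed, had 160 CPM of Gata2, 438 CPM of Gata3 and 30.8 CPM of Lmx1a. The marker list that fitted this sub-cluster best was that of marginal cells. It stayed unnamed because its top 10 genes held 2 pigment cell markers and 1 marginal cell marker.

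Nr2f1, an orphan nuclear receptor needed in mouse for a cochlear duct of normal length, had the most epithelial UMIs of the members in both libraries, a count of 3′ ends that does not scale with transcript length. It spans chr13:78188973-78199757 on the minus strand. The mutant epithelium had 923 CPM (909 to 936) and the wild type 452 CPM (442.5 to 462), a log2 ratio of 1.03, which was 0.56 without mixed barcodes (955 and 646 CPM). Lateral duct-like barcodes had 1208 CPM in the mutant and 264 CPM in the wild type, and roof-like ones 519.5 and 162 CPM. Medial duct-like barcodes had 890 CPM in the mutant and 598 CPM in the wild type. Dividing barcodes had 1012 CPM in the mutant and 1016 CPM in the wild type and did not differ beyond counting error. Sox9, an HMG-box factor of the otic placode and of cartilage at chr11:112782224-112787760, was the most even member. It stood at 447 CPM in mutant and 417 CPM in wild-type epithelium, and at 453 and 536 CPM without mixed barcodes, so its direction depended on that choice. Medial duct-like barcodes were highest in both libraries, with 580 CPM in the mutant and 615 CPM in the wild type, and roof-like barcodes had 290 and 281 CPM. Without mixed barcodes the roof-like direction turned, at 288 CPM in the mutant and 296 CPM in the wild type, with overlapping intervals.

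By subtype, 2 of 7 measured members were called higher in mutant medial duct-like barcodes (Pax2 and Lmx1a, against 2.53% of genes) and none lower (3.33%). Without mixed barcodes the same pair was called higher (3.65%) and none lower (2.11%). Sub-clustering both libraries together gave 1.97 CPM of Gata2 in mutant and 11.1 CPM in wild-type medial duct-like barcodes, a log2 ratio of -2.02 that reached 2-fold. In lateral duct-like barcodes 3 of 7 were called higher (Pax2, Eya1 and Nr2f1, against 6.18%) and Gata2 lower (7.37%). Without mixed barcodes, 54 wild-type lateral duct-like barcodes remained, Eya1 and Nr2f1 were called higher (8.0%), and Gata2 and Lmx1a lower (5.46%). Sub-clustering both libraries together left 4 mutant lateral duct-like barcodes, too few to compare. In the prosensory-like groups so made, Gata2 ran the other way, at 82.3 CPM in the mutant and 10.6 CPM in the wild type. Pax2 stood there at 39.0 and 4.36 CPM, Lmx1a at 14.5 and 2.49 CPM, Eya1 at 429.5 and 203 CPM, and Nr2f1 at 1221 and 716 CPM. In roof-like barcodes 2 of 8 were called higher (Eya1 and Nr2f1, against 5.8%) and none lower (8.89%). Of the 100 wild-type roof-like barcodes only 19 were not mixed. Over those, Eya1 and Nr2f1 were again called higher (15.5%), and Gata2 and Dlx5 lower (11.4%), the last on 10 mutant and 2 wild-type UMIs. Sub-clustering both libraries together put 275 mutant and 14 wild-type barcodes in roof-like groups. There Eya1 stood at 210 CPM in the mutant and 147 CPM (22 UMIs) in the wild type, and Nr2f1 at 553.5 and 454 CPM. Neither ratio reached 2-fold, so the roof-like calls of Eya1 and Nr2f1 depended on how the barcodes were clustered. In dividing barcodes 1 of 7 was called higher (Pax2, with 2 wild-type UMIs, against 5.6%) and none lower (3.16%). Without mixed barcodes Pax2 was again called higher (6.81%), on 39 mutant and 0 wild-type UMIs (which allow up to 4.02 CPM), and none lower (2.55%). The median UMI count differed too, at 2400 in mutant and 5921 in wild-type roof-like barcodes.

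No member was called in mesenchyme, glia or pericytes, while some were in neurons, endothelium and macrophages. In mesenchyme 0 of 6 measured members were called higher (0.473% of genes) or lower (0.605%), and the count was also 0 without mixed barcodes (0.455% higher and 0.599% lower). Sox9 stood at 244 CPM in mutant and 286 CPM in wild-type mesenchyme, Nr2f1 at 95.8 and 99.6 CPM, and Eya1 at 69.4 and 64.1 CPM. Glia likewise had 0 of 6 called, against 2.08% higher and 1.5% lower. Gata2 stood at 193 CPM in mutant and 182 CPM in wild-type glia, and Nr2f1 at 316 and 329.5 CPM. Neurons were rich in Gata3, with 539 CPM in the mutant and 454 CPM in the wild type, and in Eya1, with 170 and 137 CPM. Their 3 lower calls of 5 members (13.4% of genes, with 2.65% higher) were Gata2, Nr2f1 and Sox9, in classes of which 1.47% of mutant and 73.7% of wild-type barcodes were mixed. Without mixed barcodes neuronal Sox9 stood at 22.0 CPM in the mutant and 28.4 CPM in the wild type, and Nr2f1 at 22.0 and 39.1 CPM. The direction of neuronal Gata3 then turned, at 549 CPM in the mutant and 571 CPM in the wild type, with overlapping intervals. Endothelium had 4 of 5 members called lower (9.57%, with 2.75% higher), and 4.13% of mutant and 54.1% of wild-type barcodes were mixed. Without them Sox9 stood at 5.07 CPM in mutant and 13.03 CPM in wild-type endothelium and Gata3 at 9.74 and 5.43 CPM. Endothelial Gata2 stood at 23.8 CPM in the mutant and 24.2 CPM in the wild type, with overlapping intervals. In macrophages 2 of 5 members were called higher (7.64%, with 3.5% lower), among them Gata2 at 50.1 CPM in the mutant and 9.64 CPM in the wild type. Its 85 mutant UMIs lay in 13 of 167 barcodes and its 7 wild-type UMIs in 3 of 71. Genes of mast cells stood in the same class, with Cma1 at 1963 CPM in the mutant and 111.5 CPM in the wild type and Cpa3 at 614 and 121 CPM, and so did S100a8 of neutrophils, at 4821 and 1593 CPM. In barcodes without a UMI of Cma1, Tpsb2, Cpa3 or Hdc, genes picked after their values were seen, Gata2 stood at 4.115 CPM (6 UMIs) in the mutant and 5.69 CPM (4 UMIs) in the wild type. The 21 mutant barcodes with such a UMI held 79 of the 85 Gata2 UMIs. In pericytes or smooth muscle 0 of 3 measured members were called, against 4.15% higher and 3.8% lower, though 83 of 84 mutant and 84 of 85 wild-type barcodes were mixed, and Nr2f1 stood at 238 CPM in the mutant and 265 CPM in the wild type.

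At an equal depth of 2000 UMIs, 681 mutant and no wild-type epithelial barcodes were too shallow to use. Pax2 was then found in 3.18% of 1385 mutant barcodes (exact binomial 95% interval 2.32 to 4.24%) and 0.985% of 1625 wild-type barcodes (0.564 to 1.59%). Without thinning the shares were 10.4% in the mutant and 7.14% in the wild type. In mesenchyme, which lacks Pax2 by its CPM, the thinned share was 0.0195% in the mutant and 0 of 3168 barcodes in the wild type. Eya1 was found in 41.9% of mutant and 23.4% of wild-type barcodes and Nr2f1 in 70.0% and 47.9%, while Sox9 was found in 49.96% and 51.6%. The unthinned shares of Eya1 and Nr2f1 ran the other way, at 52.1% and 67.3% in the mutant and 57.1% and 80.9% in the wild type, with depths as given above. Without mixed barcodes, Eya1 stood at 43.1% in the mutant and 34.6% in the wild type and Nr2f1 at 71.8% and 62.4%, while Sox9 stood at 50.2% and 60.3%, with separate intervals. A barcode held UMIs of 2.07 members on average in mutant epithelium, 1.73 in wild-type epithelium, 0.643 in mutant mesenchyme and 0.688 in wild-type mesenchyme. Without mixed barcodes the epithelial means were 2.11 in the mutant and 1.98 in the wild type, and at 1000 UMIs, where no barcode was too shallow, the direction turned, at 1.20 and 1.32.

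A further 33 otic transcription factors and partners, listed with earlier results of these data known, were read in the same way. Of these, 29 had at least 10 epithelial UMIs, with 3 called higher and 6 lower in the mutant and a median log2 ratio of 0.40, against 2.16% higher, 6.14% lower and a median of 0.03 over all genes. The highest ratios among genes with at least 100 UMIs were those of Otx2 (56.1 CPM in the mutant and 5.30 CPM in the wild type, a homeodomain factor of the cochlear roof), Otx1 (10.7 and 2.71 CPM) and Sall1 (39.5 and 12.3 CPM). The lowest were those of Prox1 (5.21 CPM in the mutant and 21.9 CPM in the wild type, a factor of prosensory cells), Zfpm2 (2.66 and 6.59 CPM), which encodes a cofactor of GATA proteins, and Dach1 (19.2 and 40.9 CPM). Eya4, a paralogue of Eya1, stood at 267 CPM in the mutant and 182 CPM in the wild type. Nr2f2, a paralogue of Nr2f1, stood at 155 CPM in the mutant and 117 CPM in the wild type, and Sox10 at 162 and 106 CPM. Dlx6, the neighbour of Dlx5, had no UMI in either epithelium, which allows up to 0.148 CPM in the mutant and 0.169 CPM in the wild type. Emx2, the gene that drives Cre, stood at 31.9 CPM in the mutant and 18.1 CPM in the wild type. Without mixed barcodes 5 of the list were called higher and 3 lower, against 3.21% and 2.61% of all genes, and Nr2f2 joined the higher ones at a log2 ratio of 1.20. The median log2 ratio of the list was then 0.06, against 0.03 over all genes.

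Genes with the most similar pattern were ranked by Pearson's r of log2(CPM + 1) over 24 groups, each a class or subtype in 1 library with at least 50 barcodes. The groups share libraries and depth, and the values describe likeness only. Eya1 was most like Six4 (0.960), Eya4 (0.953) and Six2 (0.945), and Gata3 like Isl1 (0.978), a LIM-homeodomain gene, 9230102O04Rik (0.969) and Fam189a2 (0.963). 9230102O04Rik overlaps Gata3 on the same strand, so reads of this pair may not be fully told apart. A830082K12Rik, the gene most like Nr2f1 (0.95), overlaps Nr2f1 on the opposite strand. Nr2f1 was next most like Pacsin3 (0.928) and Aif1l (0.917). Sox9 was most like the cartilage collagen gene Col2a1 (0.956), Mir100hg (0.941) and Wnt5a (0.939). Lmx1a was most like Fermt1 (0.957), Atp2c2 (0.930) and Mal2 (0.925), and Pax2 like Prss22 (0.935), Mal2 (0.925) and Dsg2 (0.910). Gata2 had weaker matches in Sh3tc2 (0.872), Tbx3 (0.844) and Tox2 (0.840). Dlx5, with few UMIs, had likeness values of 0.870 with Ttr and 0.789 with Stk32a, and Pax8 had no variation to rank. Between members, Pax2 and Lmx1a had r = 0.904, and Eya1 and Gata2 had r = -0.0599.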

How the data were processed

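Cochleae were dissociated, and the cells of 8 per genotype made 1 library each with 10x Genomics 3′ chemistry, as the labels state. The sample descriptions name different kit versions for the libraries. The deposited values are raw UMI counts per gene and barcode, without normalization. Reads were counted against mm10, and the software named is Cell Ranger 6.0.0, per the submitters' processing notes. The headers of the deposited files instead name 5.0.1 for the mutant counts and 6.0.0 for the wild-type counts. Such differences move with genotype and cannot be told apart from it.

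A barcode passed with 1000 or more UMIs, 500 or more genes detected and no more than 10% of UMIs from mitochondrial genes. Scrublet's automatic threshold called 0 doublets in both libraries and so had not worked. The top-scored 0.8% per 1000 barcodes were removed instead, 703 in the mutant and 332 in the wild type. Both libraries were clustered together, without the 9 members, in scanpy 1.11.5 with igraph 0.11.9 under Python 3.11.15 (2000 variable genes, 30 principal components, 15 neighbours, Leiden resolution 1). Clusters were named from marker lists with at least 3 markers at 10 CPM. Epithelial sub-clusters were made within each library, without the members. They stayed unnamed without a marker of their own among the top 10 genes, or with more markers of another list there. The members and all lists were chosen with earlier results of these data known, and the mixed-barcode gene set, sub-cluster naming and some alternatives after the values were seen. Named genes are the members, Ptch1, Gli1, Emx2, the 3 highest and 3 lowest related genes with at least 100 UMIs and the fixed related genes Dlx6, Eya4, Nr2f2 and Sox10, the 3 most similar genes per member, and markers that check a name. Some genes that this rule names are not reported here. Other genes were picked after their values were seen.

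Counts were summed per library and group as CPM. Exact Poisson and exact binomial (Clopper-Pearson) 95% intervals came from scipy 1.17.1, and a count of 0 is given with a limit of 3 counts. UMIs remove PCR copies, but intervals cover counting error only. A difference is called at 2-fold with 1 CPM added, over genes with at least 10 UMIs. On data simulated from the epithelial libraries to test the ratio step, all 200 genes changed 4-fold were called and 0 of the others among 16306 genes. A 4-fold change lies well past the 2-fold limit, so this checks the calculation and not calls near that limit. Coordinates came from GENCODE vM21 (mm10), promoter sequence from RefSeq.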

Additional observations from a re-analysis of the deposited data

Results flagged for a closer look

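Some members were called 2-fold higher in the mutant in 1 cell class and 2-fold lower in another. With 1 library per genotype, the difference between classes was not tested. The log2 ratio of Eya1 was 1.02 in epithelium, 1.65 in macrophages and -2.46 in endothelium. The macrophage value rests on 11 mutant UMIs and 1 wild-type UMI, and the endothelial one was 0.27 without mixed barcodes. The log2 ratio of Gata2 was 2.26 in macrophages and -2.81 in neurons. The macrophage class also held mast cell genes at higher levels in the mutant, and without barcodes that had a UMI of these genes the ratio was -0.39, on 6 mutant and 4 wild-type UMIs. Neurons had 2 mutant and 69 wild-type UMIs of Gata2, and the levels without mixed barcodes were 1.255 CPM in the mutant and 7.74 CPM in the wild type. The log2 ratio of Nr2f1 was 1.03 in epithelium, -3.43 in endothelium and -1.82 in neurons. Without mixed barcodes it was 0.56 in epithelium and 1.28 in endothelium, where the levels were 9.35 CPM in the mutant and 3.26 CPM in the wild type. The part of RNA from other cell types in these values was not tested beyond leaving out mixed barcodes.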

How the results depend on the processing

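Of the 13 alternatives for the epithelial ratio of each member, Pax2 (0.67 to 1.67), Eya1 (0.51 to 1.18), Nr2f1 (0.56 to 1.10) and Gata2 (-1.31 to -0.79) kept their sign in all 13. The ratio reached 2-fold in the same direction in 12 for Pax2 and in 4 each for Eya1 and Nr2f1, and in 3 for Gata2. Lmx1a (-0.35 to 1.44), Gata3 (-0.21 to 0.01) and Dlx5 (-0.16 to 0.46) changed sign in 1 each, and Sox9 (-0.24 to 0.17) in 6. The number of members called higher was 3 with all barcodes, and also with 0.1 CPM added, with a common UMI floor and when thinned to 2000 UMIs. It was 2 under median-of-ratios scaling, with 5 CPM added and with at most 5% mitochondrial UMIs. It was 1 with doublets kept, with mixed barcodes left out, and with the epithelium taken as barcodes with Epcam or Cdh1. The number was also 1 at Leiden resolution 2, with a common UMI floor besides leaving out mixed barcodes, and with unnamed sub-clusters left out. With the shared subtypes weighted equally it was 0. The number called lower was 0, and 1 with mixed barcodes left out, with or without the floor, and with subtypes weighted equally. Over these settings 0.791% to 5.23% of all genes were called higher and 2.3% to 11% lower. The median ratio ranged between 0.06 and 0.53. Among the related genes, the calls were 3 higher and 6 lower, and 5 higher and 3 lower without mixed barcodes. Their median log2 ratio was 0.40, and 0.06 without mixed barcodes. Leaving out mixed barcodes reversed the endothelial ratios of Eya1 (0.27), Gata3 (0.74) and Nr2f1 (1.28). Leaving out barcodes with a mast cell marker UMI reversed the macrophage ratio of Gata2 (-0.39). The lateral over medial ratios kept their sign in all 14 without mixed barcodes and in the 7 wild-type ones that sub-clustering both libraries together gave. The causes were not tested. The joint floor, the unnamed sub-clusters and the mast cell markers were added after the data were seen. No paired analysis was possible because each genotype has 1 library. Depth limits Dlx5 and Pax8, whose UMIs are too few to compare.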

Other observations

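Hair cell-like barcodes of the wild type, 85 in number, had a Pax2 level of 14.7 CPM (15 UMIs), against 1.17 CPM in medial duct-like and 3.23 CPM in prosensory-like barcodes. Of these 85 barcodes, 80.0% were mixed, and the 17 others had 21.3 CPM (7.80 to 46.3). Of the prosensory-like barcodes 88.5% were mixed, and the 17 others had 8.96 CPM (2.44 to 22.9), an interval that overlaps the hair cell-like one. No mutant sub-cluster was named hair cell-like. A mutant sub-cluster of 81 barcodes led by Igfbp3, Nrxn3 and Tectb, left unnamed, had 807 CPM of Gata3 and no UMI of Gata2, which allows up to 3.48 CPM. In the wild type, the prosensory-like sub-cluster 11 had 566.5 CPM of Gata3 and no UMI of Gata2 either, which allows up to 4.01 CPM, so high Gata3 without detected Gata2 occurred in both libraries. Mesenchymal Dlx5 numbered 2 UMIs in the mutant and 7 in the wild type. Erythroid barcodes, which should lack Sox9, had 11.2 CPM in the mutant and 87.2 CPM in the wild type, and 10.0% of them in the mutant and 84.7% in the wild type were mixed.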
